A study of Mus musculus with 10 samples.

Results

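The transcription factors examined here are 10 genes that act for or against the development of type 1 conventional dendritic cells (cDC1), or earlier in their progenitors, namely Batf3, Irf8, Id2, Nfil3, Zbtb46, Bcl6, Spi1, Ikzf1, Irf4 and Zeb2. They were taken by symbol from the deposited messenger RNA table, which holds 10767 genes, and all 10 were in it. The table compares spleen CD8+ DCs of untreated Ppef2+/+ mice with those of Ppef2-/- mice, to ask which messages change when the phosphatase Ppef2, a gene used by cDC1, is missing. There were 5 sorts, and the libraries with the same replicate number, 1 of either genotype, were taken as 1 sort. Per the study's methods, a library pooled 3 mice, the cells were sorted as CD11c+MHCII+CD8+CD11b-, and the Ppef2-/- allele is a germline gene trap that stops the transcript in every cell type, so the libraries do not separate an effect within cDC1 from one that reaches them through other cells. The line was made from JM8A3.N1 embryonic stem cells and bred to C57BL/6, and the mice of both genotypes were sex and age matched, with no other allele stated.

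cDC1 are the DCs that take up dead cells and present their antigens to CD8+ T cells. As background, a cDC progenitor becomes a cDC1 when IRF8 is kept high by BATF3, a small leucine zipper protein that pairs with JUN proteins. NFIL3 and ID2 act in the same step: NFIL3 lowers ZEB2, a repressor of the cDC1 fate, and ID2 holds back E proteins such as TCF4, the factor of plasmacytoid DCs (pDCs). ZBTB46 marks the conventional lineage as a whole, BCL6 is a repressor that favours cDC1, PU.1 (Spi1) and IKAROS (Ikzf1) act earlier in progenitors, and IRF4 has its main role in cDC2, the second conventional type.

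The sequences before the annotated starts are shown for the 3 factors whose level differed between the sorts, as described below. They are RefSeq promoter sequence of build GRCm38.p6, written in the direction of the gene and shortened at the first base that GENCODE M21 places in an exon. Nfil3 is shown from chr13:52981074-52981289 (minus strand, 216 bases), Irf4 from chr13:30748983-30749225 (plus strand, 243 bases) and Zbtb46 from chr2:181424389-181424638 (minus strand, 250 bases). The first 2 lie outside the GENCODE gene, whereas the Zbtb46 stretch lies inside the GENCODE gene and outside its exons, because RefSeq places a start there. The bases before the GENCODE start of Zbtb46 are not shown and were not searched. Capitals mark matches to the searched motifs.
Nfil3: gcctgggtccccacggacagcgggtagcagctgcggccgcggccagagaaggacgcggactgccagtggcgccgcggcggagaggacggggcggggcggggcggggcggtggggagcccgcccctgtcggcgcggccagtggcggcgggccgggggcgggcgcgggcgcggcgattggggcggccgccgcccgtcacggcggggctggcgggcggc
Irf4: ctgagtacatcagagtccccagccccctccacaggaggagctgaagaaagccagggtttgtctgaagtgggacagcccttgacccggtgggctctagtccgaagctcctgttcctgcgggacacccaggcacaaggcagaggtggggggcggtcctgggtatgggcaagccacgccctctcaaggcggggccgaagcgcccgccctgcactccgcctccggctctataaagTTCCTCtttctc
Zbtb46: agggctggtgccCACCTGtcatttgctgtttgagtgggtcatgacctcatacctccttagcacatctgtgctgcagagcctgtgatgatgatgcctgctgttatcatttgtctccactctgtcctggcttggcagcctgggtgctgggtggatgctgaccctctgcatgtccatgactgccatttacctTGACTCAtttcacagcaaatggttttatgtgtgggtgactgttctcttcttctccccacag

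Motifs were searched on both strands in the 250 bases before each start: TGANTCA, read by BATF and JUN pairs, the element of IRF proteins, which is GAAA repeated after 2 bases, GAGGAA, the core read by PU.1, TTATGTAA, read by NFIL3, and CAGGTG, read by ZEB2 and E proteins. Of 32851 RefSeq promoters, 6.75% held TGANTCA, 2.98% the IRF element, 23.3% GAGGAA, 0.819% TTATGTAA and 17.2% CAGGTG. The Irf4 sequence held GAGGAA, read on the other strand as TTCCTC. The Zbtb46 sequence held TGACTCA and, on the other strand, CAGGTG. No searched motif was in the Nfil3 sequence. The promoters of 9 of the 10 factors were in the reference. The Batf3 promoter held GAGGAA, as did 1 of 2 Bcl6 promoters and all 4 Zeb2 promoters. Of these Zeb2 promoters, 2 overlap (chr2:45113280-45113529 and chr2:45113254-45113503) and share the same GAGGAA. Another 1 of the Zeb2 promoters also held TGANTCA at 2 places. Of the 2 Irf8 promoters, 1 held CAGGTG. The Id2 and Ikzf1 promoters held no searched motif. A letter match is only a description of the window.

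The deposited values are normalized counts from which the mean of each sort had been removed. For 10721 genes no library was at the floor of 1, and for these both values of a sort, Ppef2+/+ plus Ppef2-/-, gave the same sum in all 5 sorts, to within 6.3e-06 of it. The libraries of a sort thus mirror each other, and only the difference within a sort is free to vary. The SD of a factor's deposited values is therefore nearly equal in both genotypes. It measures only the differences within sorts and leaves out the spread between sorts. Whole reads were solved for the 9627 genes whose values were all under 1000, which gave the sort means back, and these include Batf3, Nfil3, Zbtb46, Irf4 and Zeb2. With the sort means put back, the SD in Ppef2+/+ and Ppef2-/- was 244 and 243 normalized counts for Nfil3 and 239 and 154 for Irf4. It was 135 and 134 for Zbtb46, 28.1 and 52.8 for Batf3, and 24.3 and 13.3 for Zeb2. For Irf8, Id2, Bcl6, Spi1 and Ikzf1 the levels of single sorts are unknown, and only the mean and the 5 differences are given. Library depth, as reads in the solved genes, was 1396295 to 2273524 in Ppef2+/+ (median 1512847) and 1508367 to 4409545 in Ppef2-/- (median 2234414). Ppef2 itself was at 0 to 8 reads in each Ppef2-/- library and at 95 to 228 in each Ppef2+/+ library, which is what the labels state.

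All 9 of 9 cDC1 markers were in the table, with summed deposited values of 87567 to 91076 in Ppef2+/+ and 87486 to 90995 in Ppef2-/-. H2-Ab1, an MHCII gene, had the largest part in this sum (mean 47170), followed by Irf8 (13450). The list includes genes of the proteins used for the sort and the factors Batf3 and Irf8, so it is not an independent measure of cDC1 identity. In contrast, few markers of other blood cells were listed, with 2 of 7 for B cells (Cd79b and Ms4a1, summed 162 to 183), 1 of 7 for T cells (Cd5, 28.1 to 51.3), 1 of 5 for neutrophils (S100a9, 1 to 21.2) and 2 of 5 for red cells with platelets (73.5 to 148). The 9 of 10 cDC2 markers summed to 1135 to 1546 in Ppef2+/+ and 1109.5 to 1521 in Ppef2-/-, and the 7 of 9 markers of monocytes and macrophages to 1361 to 1576 and 1389 to 1603. The 8 of 9 pDC markers summed to 1313 to 1421 and 1176 to 1280.3, the only list of other cells with deposited ranges that did not overlap and with a called gene, Tcf4. These ranges leave out the differences between sorts. With the sort means put back, the pDC sum, as the mean of both genotypes, ran from 1185 to 1485 over the sorts.

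To compare the factors with each other, the deposited value was divided by the length of the gene's exons in GENCODE M21 (build GRCm38). Irf8 was the highest of the 10 with 3915 ± 102 normalized counts per kb (SD over 10 libraries), 2.51 times the level of Id2 with 1561 ± 88.6. Spi1 followed with 799.7 ± 43.1, then Batf3 with 519.0 ± 16.3, Bcl6 with 359 ± 21.03 and Ikzf1 with 289 ± 10.8. Nfil3 was at 227 ± 14.9, Zbtb46 at 113 ± 5.15, Irf4 at 101 ± 10.3, and Zeb2 was the lowest with 11.3 ± 0.993, so that Irf8 was 346 times above Zeb2. Irf8, Id2, Spi1, Batf3, Bcl6, Ikzf1 and Nfil3 thus stood above Irf4 and Zeb2 per length in the deposited values, and the order was the same with the longest transcript of each gene as the length. In bulk libraries fewer cells with a message and less message per cell cannot be told apart.

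Among neighbours in this order, the deposited ranges overlapped only for Zbtb46 and Irf4. These ranges lack the differences between sorts. With the sort means put back, Nfil3 spanned 84.5 to 373 normalized counts per kb over the 10 libraries, Zbtb46 85.4 to 139 and Irf4 41.7 to 160, so the order among these 3 is not separated by their spread. Batf3 (439 to 624) stayed above and Zeb2 (8.49 to 13.5) below all 3 of them. The Nfil3 span also overlaps the deposited ranges of Ikzf1 (276 to 302) and Bcl6 (322 to 397). The spread of Ikzf1 and Bcl6 between sorts is unknown, so their order with Nfil3 is not separated either.

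**Figure D1:**
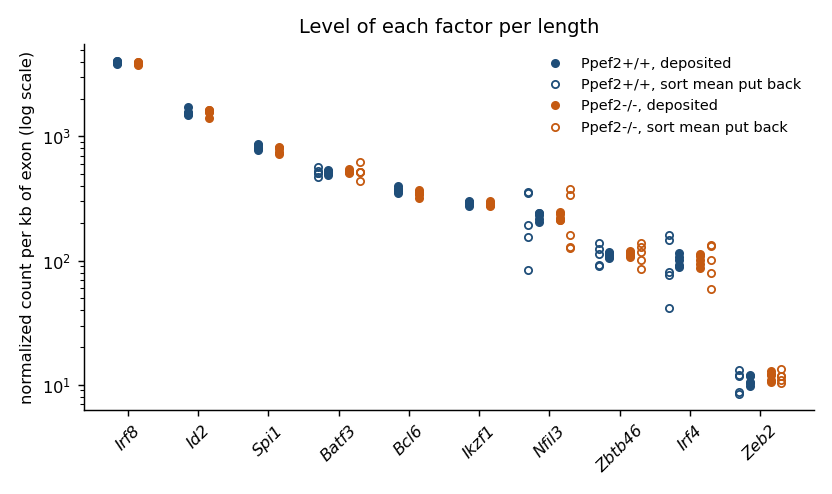
Normalized count per kb of exon (y axis, log scale) for the 10 factors (x axis, ordered by mean). Filled points are the deposited values of the 5 libraries per genotype and open points the values of the 5 solved factors with the sort mean put back, where Nfil3 runs from 84.5 to 373, while Irf8 has the highest deposited level (3915 ± 102) and no sort means put back.

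The genes are placed as follows in GRCm38. Batf3 lies at chr1:191097847-191108945, Irf8 at chr8:120736358-120756694, Id2 at chr12:25093799-25097140 and Nfil3 at chr13:52967209-52981073. Zbtb46 is at chr2:181387762-181459426, Bcl6 at chr16:23965052-23988852, Spi1 at chr2:91082390-91115756 and Ikzf1 at chr11:11685003-11772926. Irf4 covers chr13:30749226-30766976 and Zeb2 chr2:44983632-45117395. Exons of Zeb2 share 359 bases (3.14% of their length) with the antisense gene Zeb2os, and exons of Bcl6 share 21 bases with Gm37419 on the other strand. The library kit does not keep strand, so reads from these bases cannot be assigned to one gene.

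Between the genotypes, 0 of the 10 factors differed at an adjusted p under 0.05, and the ratio of the Ppef2-/- mean to the Ppef2+/+ mean was between 0.929 (Bcl6) and 1.08 (Zeb2). This holds for limma without a term for the sort, the model of the study, which called 0.957% of all 10767 genes, and for limma with the sort as a block, which called 0.00929% (1 gene, Ppef2). Without the block, 1 of the 10 (Bcl6) had an unadjusted p under 0.05, compared to 17.5% of all genes, and with the block 0 of 10, compared to 4.29%. By voom on the whole reads with the block, 0 of the 5 solved factors were called, compared to 0.0208% of 9627 genes, and 0 of 5 had an unadjusted p under 0.05, compared to 4.6%. The fit without the block does not count the sort means that were taken out of the values, so its p values are too small. The median log2 fold change was -0.0069 over the 10 factors and 0.00089 over all genes, and the median of its size was 0.0256 and 0.0710. In 0 of the 10 factors did all 5 sorts move in 1 direction, or equally the deposited ranges of the genotypes not overlap, which 6.18% of all genes did.

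Of the 50 differences within a sort, 23 were higher and 27 lower in Ppef2-/-. Their size was under 10% of the factor's mean in 33 of 50 and over 20% in 5, and the largest was 28.0% for Irf4 in sort 4.

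**Figure D2:**
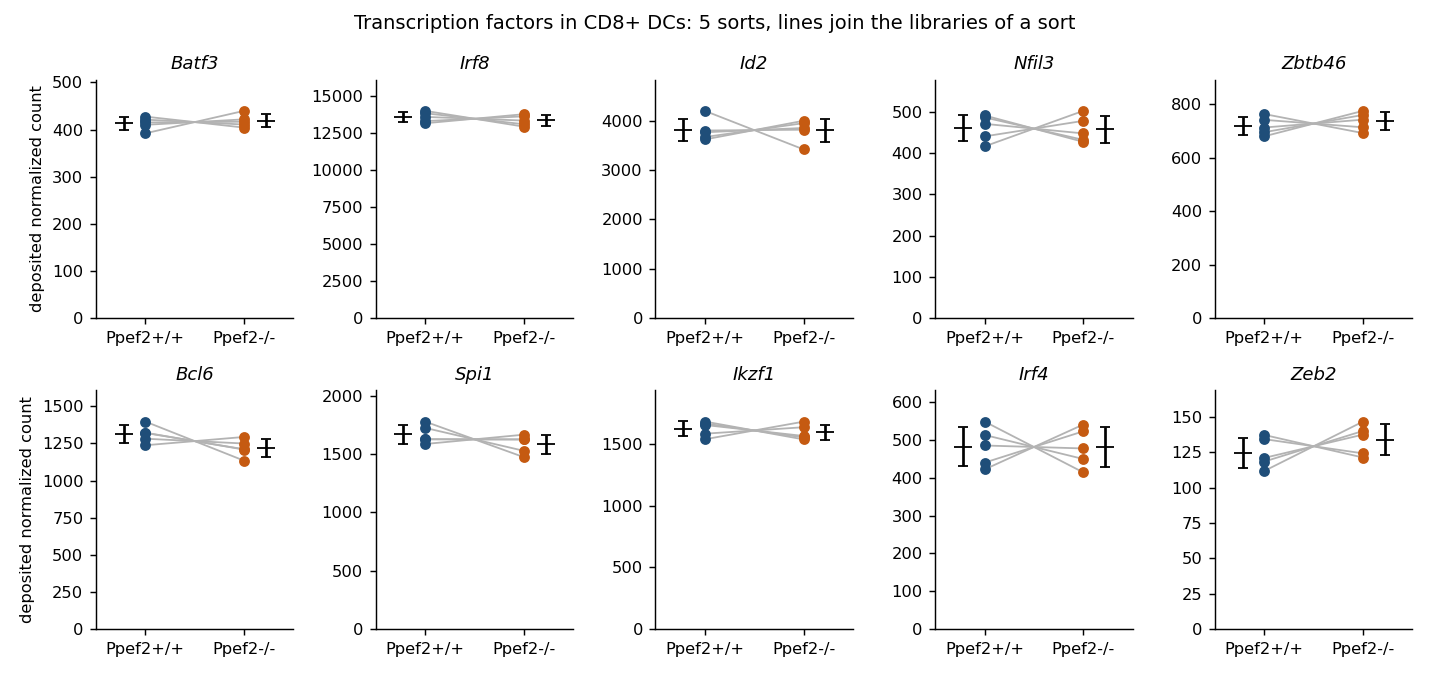
Deposited normalized count (y axis, from 0) of each factor in the 5 Ppef2+/+ and 5 Ppef2-/- libraries, with a line joining both libraries of a sort and bars for mean ± SD. The lines cross near the middle because the sort means were removed, and the genotype ranges overlap for all 10 factors.

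Batf3, which cDC1 require for their development in the spleen, was level in the deposited values. From sort 1 to sort 5, Ppef2+/+ cells had 415, 421, 409.9, 427 and 392 normalized counts, and Ppef2-/- cells had 417, 411, 422, 404 and 439.6. The genotypes overlapped, and Ppef2-/- was higher in 3 of 5 sorts. The means were 413 ± 13.5 in Ppef2+/+ and 418 ± 13.5 in Ppef2-/- (SD, n = 5 each), a ratio of 1.01. The log2 fold change by limma was 0.02 (SE 0.036, adjusted p = 0.835), and the 95% interval of the fold change with the sort as a block ran from 0.919 to 1.12.

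Irf8, the factor that commits progenitors to cDC1, was at 13288, 13819, 13143, 13573 and 13981 normalized counts in Ppef2+/+, listed from sort 1 to sort 5. Ppef2-/- cells had 13609.6, 13078, 13754, 13325 and 12917. Ppef2-/- was the lower library in sorts 2, 4 and 5 (differences of -740.5, -248 and -1064 normalized counts) and the higher one in sorts 1 and 3 (322 and 611). The means of 13561 ± 351 and 13337 ± 351 (SD, n = 5 each) gave a ratio of 0.983, with an adjusted p of 0.692 by limma and a blocked 95% interval of 0.918 to 1.05.

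Id2, the inhibitor of E proteins, had means of 3808 ± 229 in Ppef2+/+ and 3805 ± 229 in Ppef2-/- normalized counts (SD, n = 5 each). The Ppef2-/- library was higher in 4 of 5 sorts, by 16.8 to 378 normalized counts, and lower in sort 3 (-780.4), where Ppef2+/+ had 4197 and Ppef2-/- 3417. That single sort brought the ratio to 0.999, and without either library of sort 3 the log2 fold change was 0.03 and 0.04 (limma adjusted p = 0.743 and 0.70). Nfil3 had means of 461 ± 32.0 and 457 ± 32.0 and a ratio of 0.992, with Ppef2-/- higher in sorts 1 and 4. The blocked 95% interval of the fold change was 0.92 to 1.08 for Id2 and 0.890 to 1.11 for Nfil3.

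Bcl6 showed the largest difference in percent among the factors that were lower in Ppef2-/-. Its values from sort 1 to sort 5 were 1238, 1321, 1398, 1323 and 1282 normalized counts in Ppef2+/+ and 1294, 1211, 1134, 1209 and 1249.9 in Ppef2-/-. Ppef2-/- was lower in 4 of 5 sorts, and the ranges overlapped through sort 1. The means were 1312.5 ± 59.1 and 1219.7 ± 59.1 (SD, n = 5 each), the log2 fold change was -0.11 (SE 0.040) and the limma adjusted p was 0.193. The unadjusted limma p was 0.0195 without the block and 0.0782 with it, and the exact permutation test within sorts gave p = 0.1875 (two-sided, smallest possible 0.0625).

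Spi1, which encodes PU.1, was also lower in 4 of 5 sorts. The difference was small in sorts 1 and 5 (-2.32 and -1.25 normalized counts) and came from sorts 2 and 4 (-197 and -305.5), and Ppef2-/- was 80.1 higher in sort 3. The means of 1669 ± 79.9 and 1584 ± 79.9 gave a ratio of 0.949 (limma adjusted p = 0.366, n = 5 each). Ikzf1 was at 1627 ± 61.5 and 1597 ± 61.5 with a ratio of 0.981, lower in 3 of 5 sorts, and Zbtb46 at 718 ± 33.9 and 736 ± 33.9 with a ratio of 1.02, higher in 3 of 5.

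Irf4 and Zeb2, the factors linked to other fates, were not called. Irf4 was at 482 ± 52.0 normalized counts in Ppef2+/+ and 481 ± 52.0 in Ppef2-/- (SD, n = 5 each), a ratio of 0.998 made of differences of 82.9, -7.85, -63.6, -134.6 and 118.9 in sorts 1 to 5. Its log2 fold change turned from -0.0026 to 0.0922 once the sort means were put back, and neither was called by limma. Zeb2 was at 125 ± 10.8 and 134 ± 10.8, a ratio of 1.08, and Ppef2-/- was higher in sorts 1, 2 and 5 and lower in sorts 3 and 4. Its blocked 95% interval of the fold change was 0.91 to 1.27, the widest of the 10 in that fit, whereas Irf4 had the widest without the block. The reads of Zeb2 were the fewest of the 5 solved factors (71 to 261 per library).

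**Figure D3:**
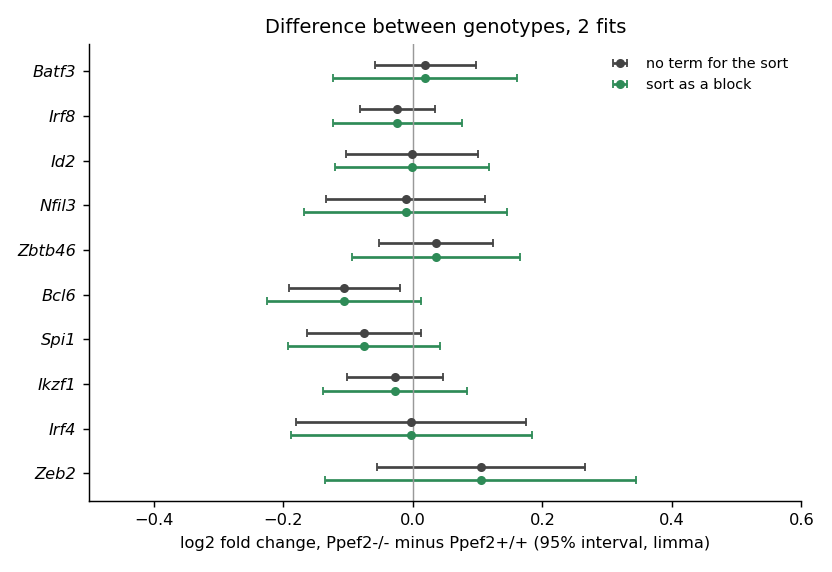
Log2 fold change of Ppef2-/- against Ppef2+/+ (x axis) with its 95% interval by limma for the 10 factors (y axis), without a term for the sort (grey) and with the sort as a block (green), on 5 libraries per genotype. Points lie between -0.11 (Bcl6) and 0.10 (Zeb2), and every blocked interval includes 0.

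The sorts, in contrast, differed for some of the factors. With the sort means put back, an F-test of the sort term in limma, with genotype in the model, called 3 of the 5 solved factors (Nfil3, Irf4 and Zbtb46) and 6.53% of all 9627 solved genes, or 8.74% of the 5719 with a mean of at least 100. This test was chosen after the data were seen. The sorts used different mice, and the sort, its mice and its libraries cannot be told apart.

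Nfil3, a factor that is also known as a target of cytokine and clock signals, varied most. In Ppef2+/+ its values from sort 1 to sort 5 were 171, 315, 708, 719 and 391 normalized counts (125, 231, 471, 778 and 393 reads). In Ppef2-/- they were 257, 261, 685, 757 and 327 (554, 441, 731, 716 and 239 reads). Both genotypes were high in sorts 3 and 4 and low in sorts 1 and 2, and no library of sorts 3 and 4 overlapped with one of the other sorts. The sort means of 214, 288, 696, 738 and 359 spanned 3.44-fold, with an adjusted p of 2.72e-10 by limma. The span was 4.20-fold within Ppef2+/+ and 2.94-fold within Ppef2-/-. Of the 5719 genes with a mean of at least 100, 24 (0.42%) spanned as much, and 2.36% spanned over 2-fold.

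Irf4 showed the same order of the sorts. Ppef2+/+ cells had 198, 387, 696, 763 and 364 normalized counts (145, 284, 463, 826 and 366 reads) and Ppef2-/- cells 281, 379, 632, 629 and 483 (606, 642, 675, 595 and 353 reads). Again sorts 3 and 4 were above all other libraries in both genotypes. The sort means of 240.0, 383, 664, 696 and 424 spanned 2.90-fold (limma adjusted p = 9.69e-09), which 45 of 5719 genes (0.787%) reached. The other 8 cDC2 markers in the table, without Irf4, summed to 772, 856, 819, 816 and 969 normalized counts in sorts 1 to 5. This sum was lowest in sort 1 and highest in sort 5, and its part in the Irf4 difference was not tested.

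Zbtb46, the marker of conventional DCs, had the reverse order. It was at 898, 793, 592, 579 and 728 normalized counts in Ppef2+/+ and at 827, 889, 657, 552 and 757 in Ppef2-/-, with 394 to 1780 reads. Sorts 3 and 4 were below all other libraries in both genotypes. The span of the sort means was smaller, 1.53-fold from 566 in sort 4 to 862 in sort 1 (limma adjusted p = 4.99e-05), and 7.33% of the 5719 genes reached it. The 8 pDC markers in the table summed to 1204, 1375, 1234, 1185 and 1485 normalized counts in sorts 1 to 5, with sort 4 lowest and sort 3 above sort 1. Their part in the Zbtb46 difference was not tested.

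Batf3 and Zeb2 were not called. Batf3 was at 409, 424, 404, 375 and 452 normalized counts in Ppef2+/+ and at 411, 414, 416, 352 and 499.8 in Ppef2-/- after the sort means were put back. It was lowest in sort 4 and highest in sort 5 in both genotypes, a span of 1.31-fold (limma adjusted p = 0.245), which 24.9% of the 5719 genes reached. Zeb2 spanned 1.35-fold (limma adjusted p = 0.467), with sort means of 108 to 146, and sort 1 was lowest in both genotypes.

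Library depth also differed between the sorts. In Ppef2+/+ the reads in solved genes were fewest in sort 3 (1396295) and most in sort 4 (2273524), both of them sorts with high Nfil3 and Irf4. In Ppef2-/- they were most in sort 1 (4409545) and fewest in sort 5 (1508367). The part of depth in the differences between sorts was not tested. Without any 1 of the 10 libraries, the span stayed between 2.87-fold and 4.31-fold for Nfil3, between 2.47-fold and 3.51-fold for Irf4 and between 1.49-fold and 1.59-fold for Zbtb46, and the highest limma adjusted p was 0.000728.

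**Figure D4:**
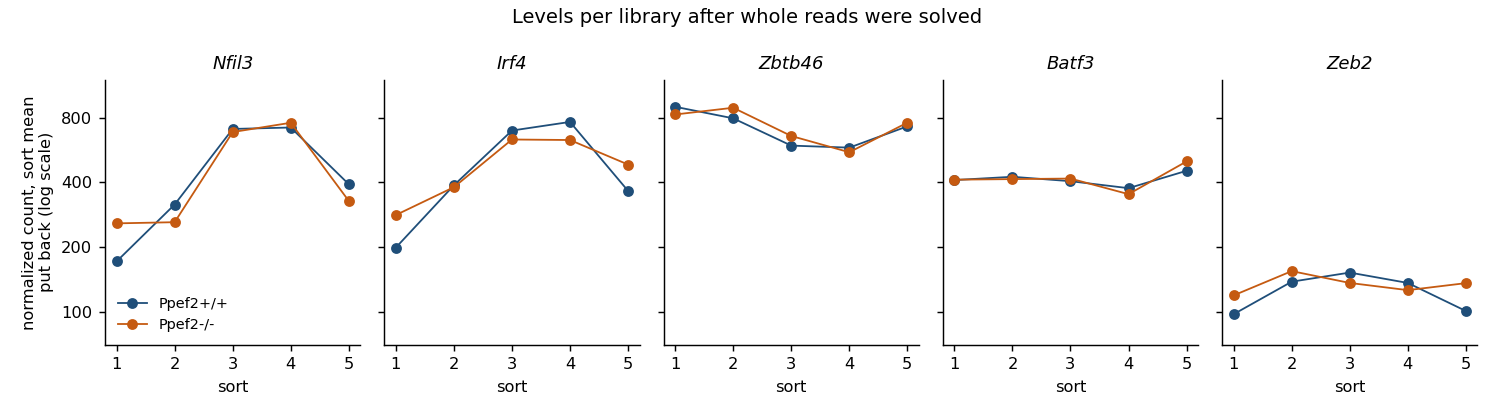
Normalized count with the sort mean put back (y axis, log scale) in sorts 1 to 5 (x axis) for the 5 solved factors, with 1 point per library and a line per genotype as a guide. Nfil3 and Irf4 are highest in sorts 3 and 4 and Zbtb46 is lowest there in both genotypes, whereas Batf3 and Zeb2 span 1.31-fold and 1.35-fold.

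The other transcription factors of DCs and their progenitors were a list of 52 genes, 48 of them in the table. For the genotype, 1 of 48 was called by limma without the block and 0 with it, beside 0.957% and 0.00929% of all genes. An unadjusted p under 0.05 was found for 8 without and 3 with the block, beside 17.5% and 4.29% of all genes. The called gene was Tcf4, the E protein that ID2 holds back. Tcf4 was at 423 ± 19.6 normalized counts in Ppef2+/+ and 342 ± 19.6 in Ppef2-/- (SD, n = 5 each), a log2 fold change of -0.31 (limma adjusted p = 0.0182). It was lower in 5 of 5 sorts, with an exact permutation p of 0.0625, the smallest that 5 pairs allow. With the sort as a block the limma adjusted p was 0.711. Without 1 library it was 0.0335 to 0.0599, and it was 0.05 or higher without the Ppef2+/+ library of sort 2 (0.0599) or 3 (0.0575) and without the Ppef2-/- library of sort 2 (0.0597), 3 (0.0556) or 4 (0.0503). With the sort means put back, Tcf4 ranged from 376 to 443 in Ppef2+/+ and from 287 to 374 in Ppef2-/-.

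Tcf4 is also a marker of pDCs. The 8 pDC markers in the table, Tcf4 included, summed to 1313 to 1421 deposited normalized counts in Ppef2+/+ and 1176 to 1280.3 in Ppef2-/-, and these ranges did not overlap. They leave out the differences between sorts, over which the mean of both genotypes ran from 1185 to 1485. Spib, another pDC factor, had a ratio of 1.03, and Ccr9 was also higher in Ppef2-/- (log2 fold change 0.0275). Siglech (-0.254), Bst2 (-0.0482), Ly6d (-0.823), Klk1 (-0.806) and Pacsin1 (-0.121) were lower in Ppef2-/-. Ly6d and Klk1 were low, with means of 21.3 and 10.7 normalized counts. Their lowest deposited values were 2.52 and 1, the latter being the floor. None of these markers other than Tcf4 was called. The 6 markers without the transcription factors Tcf4 and Spib summed to 704 to 859 in Ppef2+/+ and 626 to 778 in Ppef2-/-, which overlap. With the sort means put back the sums of the 6 were 618 to 994 and 678 to 759, and they were lower in Ppef2-/- in 3 of 5 sorts. Their part in the Tcf4 difference was not tested.

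Of the remaining factors, those with the highest level in each family had these values. Irf5 and Irf1 were the highest of the 7 other interferon regulatory factors, at ratios of 0.942 and 1.07. Jun and Junb, partners of BATF3, were the highest of 5 BATF relatives and JUN proteins with ratios of 1.06 and 1.02, and 0 of the 5 had an unadjusted p under 0.05. Tcf3, another E protein, had a ratio of 0.959, whereas Etv3 and Etv6 among the 13 Ikaros, ETS and RUNX relatives were at 1.06 and 1.02. Mycl and Rbpj, the highest of the 18 further factors, were at 1.06 and 1.03. None of these 9 genes was called (limma adjusted p of 0.213 to 0.912 without the block). Among the factors not chosen by level, ratios ran further from 1, with Ets1 at 0.724, Klf4 at 1.14, Cebpa at 1.31 and Batf2 at 1.36. Batf2 was low, with a mean of 8.81 normalized counts. They were not called either (limma adjusted p of 0.081 to 0.513 without the block).

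Genes that depend on Batf3 or Irf8 were a list of 18, all in the table, and 0 of 18 were called for the genotype in either fit. Without the block 3 of 18 had an unadjusted limma p under 0.05 and with it 1 of 18, beside 17.5% and 4.29% of all genes, and the median log2 fold change of the 18 was -0.0079. Wdfy4, needed by cDC1 for cross-presentation, had means of 28587 ± 539 and 28476 ± 539 normalized counts, and Ppt1, a lysosomal thioesterase, 20348 ± 782 and 19988 ± 782 in Ppef2+/+ and Ppef2-/- (SD, n = 5 each).

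Between the sorts, 6 of the 34 solved factors of the wider list and 1 of 2 solved cDC1 genes were called, beside the background of 6.53%. Id1 and Id3, relatives of Id2 that also bind E proteins, spanned most. Id1 had sort means of 35.8, 71.1, 289, 179.8 and 110.0 normalized counts, a span of 8.07-fold (limma adjusted p = 9.66e-10). Id3 was low in reads (4 to 94 per library), with sort means of 7.61 to 89.1. Il12b, which encodes the p40 subunit of IL-12, a main cytokine of cDC1, was at 251, 323, 707, 783 and 376, a span of 3.12-fold. Runx3 (1.66-fold) and Cebpa (2.40-fold) were also highest in sorts 3 and 4, as was Xbp1 (1.35-fold), whereas Irf7 (1.48-fold) was lowest in sort 3.

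**Figure D5:**
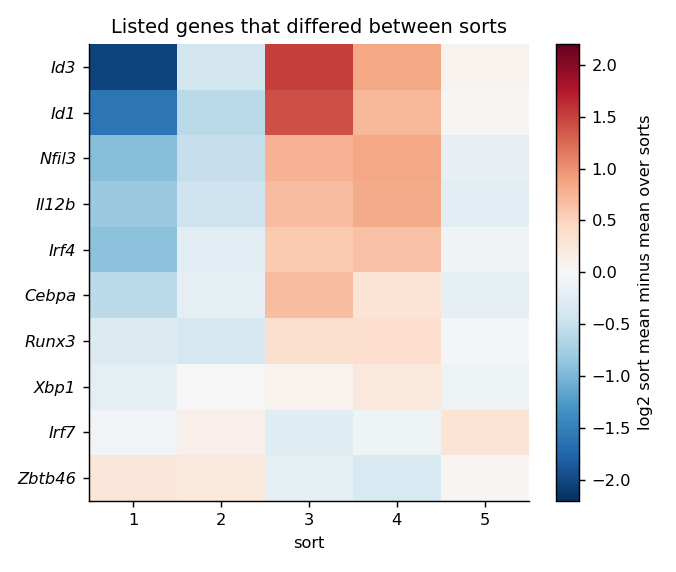
Log2 sort mean minus the mean over the sorts (colour, red above and blue below 0) for the 10 listed genes called between sorts (y axis) in sorts 1 to 5 (x axis), as means of both genotypes. Nfil3, Irf4, Il12b, Id1 and Id3 are above 0 in sorts 3 and 4, and Zbtb46 and Irf7 are below 0 there.

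The genes nearest to Batf3 and Irf8 were ranked by the root mean square distance of their 5 within-sort log2 differences, over 6859 other genes with a mean of at least 100. Prmt1 (0.0223), Zfp398 (0.0230) and Ptbp2 (0.0282) were nearest to Batf3, and 18 genes were nearer than 0.05. Atad2 (0.0125), Psmb4 (0.0145) and Ppfia4 (0.0167) were nearest to Irf8, and 42 genes were nearer than 0.05. By the 5 sort means, chosen as a measure after the data were seen and over 5718 other genes, Nfil3 was nearest to 4930523C07Rik (0.0691), Mir22hg (0.0727) and Il12b (0.0738). Irf4 was nearest to Tiparp (0.0394), which had sort means of 379, 567, 990.1, 1022 and 654, followed by Klf11 and Zbtb2. Zbtb46 was nearest to Zfp282 (0.0224), which was at 438.5 and 426 in sorts 1 and 2 and at 324 and 294 in sorts 3 and 4. These distances describe 5 points that share libraries.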

How the data were processed

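Messenger RNA was sequenced from spleen CD8+ DCs in 10 libraries, grouped by genotype and by replicate number, which was taken as the sort. Per the study's methods the authors used HISAT for alignment to mm10, Partek 6.6 for gene counts and DESeq2 for normalization, while the submitters' processing notes name TopHat2 2.0.3 as the aligner. The deposited values are normalized counts, treated here as a signal and not as counts. They have a floor of 1, and in every gene the larger genotype mean is above 10. The step that removed the sort means is not given in the sources used here. All 10 columns were used.

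log2(value + 1) was fitted for all 10767 genes with limma 3.58.1 in R 4.3.3 (trended variance, Benjamini-Hochberg over all genes, threshold 0.05), without a term for the sort as in the study, and with the sort as a block as an alternative. Fold changes on this scale understate low genes. Libraries were paired by their replicate number. The deposited values of each pair mirror each other, but the study's methods do not state which libraries shared a sort. Deviations from the genotype means of paired libraries correlated with r = -1.00 in the deposited values, and with 0.55, 0.33, 0.49, 0.48 and 0.09 in sorts 1 to 5 once the sort means were put back. Single factors were also tested by an exact permutation within sorts.

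Whole reads were solved from the step of 1 read in each library. All 9627 attempted genes gave exactly 1 set of reads, which returned the deposited values to within 5e-06 (89.4% of the table, values under 1000), whereas 24 of 6156 genes with values of 100 to 1000 (0.39%) were solved in a control with altered values. The scripts were tested on simulated data.

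The factors, lists and named genes were chosen with earlier results of these data known. Named were the 10 factors, Ppef2, the called and the 2 highest genes of each other list, and the 3 genes nearest to Batf3 and to Irf8. The genes called between sorts and the nearest genes by sort means were named after their values were seen. So were Ets1, Klf4, Cebpa and Batf2, for their ratios of means, and the remaining pDC markers, which are given beside Tcf4. Read numbers carry counting error and also the differences between libraries and sorts.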

Additional observations from a re-analysis of the deposited data

How the results depend on the processing

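Under 19 alternatives, 175 fold changes of the factors between genotypes were recomputed. 158 kept their direction, 17 reversed and 0 passed an adjusted p of 0.05. The largest size was 0.141 on the log2 scale and the smallest adjusted p was 0.171. The reversals concern factors close to 0. Nfil3 was at 0.0163 with the sort means put back, with or without the replicate block, and at 0.0014 by voom on whole reads with the block. Irf4 was at 0.0922 in both of the former fits and at 0.0155 by voom. Without 1 library the log2 fold change ran from -0.0473 to 0.0128 for Nfil3, from -0.0487 to 0.0495 for Irf4 and from -0.0197 to 0.0368 for Id2. The cause was not tested. The number of genes called in the whole table was 103, and it depended on the fit: 1 with the sort as a replicate block, 193 without a variance trend, 1 once sort means were put back without a block, 2 with a block as well, 2 by voom with the block and 1 to 23 without 1 library. The block uses degrees of freedom that the removed sort means had taken, and it ended the call of Tcf4. No factor was called with or without it. Ppef2 had a limma adjusted p of 0.0116 to 0.0713 without 1 library, in the deposited values without a block. With the sort means put back its limma adjusted p was 1.95e-06 without a block and 1.17e-14 with it. By voom with the block it was 8.75e-11. The number of genes that differ between sorts was 629, 648 with a pseudocount of 10, 734 by voom and 469 to 695 without 1 library, and Nfil3, Irf4 and Zbtb46 stayed called in all of these. For the 5 factors with values above the solved range the level of a sort is unknown.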
